A study of Mus musculus with 12 samples.

Results

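The integrin and laminin genes are described here across sham and 5 times after ischemic stroke in mouse astrocytes isolated by fluorescence-activated cell sorting. The members are all genes in the deposited count table whose symbol begins with Itga or Itgb, leaving out Itgbl1 and the integrin-binding proteins, together with the genes named Lama, Lamb or Lamc and a number. This gave 37 of 15774 genes, namely 17 integrin alpha subunits, 9 integrin beta subunits and 11 laminin chains. All mice were wild-type C57BL/6J. In the stroke groups the distal middle cerebral artery was tied permanently and both common carotid arteries were closed for 7 min, whereas sham mice had a lesion at the skull surface and no vessel closed. The cerebral cortex was collected from sham mice and on days 1, 3, 7, 21 and 60 after stroke, with n = 2 libraries in each of 6 groups. Age, sex, the marker used for sorting, the day on which sham tissue was taken and the part of the cortex collected are not stated. The labels do not say whether replicates came from separate mice, so p-values measure only the spread between these libraries, which may be technical.

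Integrins are transmembrane receptors built from an alpha and a beta subunit that tie the actin cytoskeleton to the extracellular matrix or to ligands on other cells. Laminins are trimers of an alpha, a beta and a gamma chain that polymerize into the sheet of the basement membrane, where integrins and dystroglycan anchor the cells. In the brain, astrocyte endfeet meet such membranes around blood vessels and at the glia limitans under the pia, and endothelium, pericytes, meningeal fibroblasts and invading leukocytes each carry their own set of these genes.

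The sorted cells carried astrocyte transcripts in every library, and transcripts of other cell types as well. The 10 astrocyte markers, which include Gfap, Aqp4 and Slc1a3, took 0.852% and 0.668% of all counts in sham, 0.646% and 1.37% on day 1, 0.471% and 0.886% on day 3, 0.195% and 0.101% on day 7, 0.372% and 0.2502% on day 21 and 0.358% and 0.269% on day 60. On day 7, 2 of these genes were higher and 6 lower than in sham. In mean CPM (counts scaled to the size of the library), Aldoc had 5261 in sham and 217 on day 7. Gfap had 168 in sham, 2806 on day 3 and 458 on day 7. Gja1 and Gjb6 too had higher means on day 7 than in sham, and the other markers had lower ones. The 10 markers of fibroblasts and meninges, among them Col1a1, Dcn and Lum, took 0.00713% and 0.00805% in sham, 0.225% and 0.285% on day 1, 0.701% and 2.42% on day 3, 8.097% and 19.9% on day 7, 2.93% and 4.67% on day 21 and 1.88% and 2.56% on day 60. As a share of counts this list was thus highest on day 7, where the astrocyte list was lowest. Its genes did not all follow the share. Col1a1, Col1a2, Col3a1, Fap and Postn had their highest mean CPM on day 7, as Col3a1 with 82596. Dcn and Lum had theirs on day 60, Pdgfra on day 21, and Aldh1a2 and Slc6a13 on day 3. Dcn had 1914 CPM on day 7 and 8255 on day 60. The 10 markers of microglia and macrophages took 0.4705% and 0.371% on day 3 and 0.5003% and 0.296% on day 7, against 0.0570% and 0.0726% in sham. The 10 endothelial markers took 0.8896% and 0.574% on day 1 and 0.452% and 0.1098% on day 3, against 0.138% and 0.184% in sham, so that the libraries of day 3 differed from each other in this list. The 10 neuronal markers took 0.0267% and 0.01404% on day 7, against 0.831% and 0.977% in sham, and 9 of them were lower on day 1 and 10 at each later time. The 10 oligodendrocyte markers took 0.102% and 0.0462% on day 7, against 1.08% and 0.928% in sham. The 10 markers of pericytes and smooth muscle took 0.217% and 0.192% on day 7, against 0.0581% and 0.0686% in sham, with 4 genes higher and 3 lower. All 10 markers of the astrocyte, fibroblast, microglia and endothelium lists had counts in every group, and the part of these cell types in the results below was not tested. In sorted bulk samples fewer cells of a type and less RNA per cell cannot be told apart. Replicate 2 of each group was 6.30 to 9.63 times as deep as replicate 1, with 97056596 to 156128922 counts against 13006008 to 16575045.

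**Figure D1:**
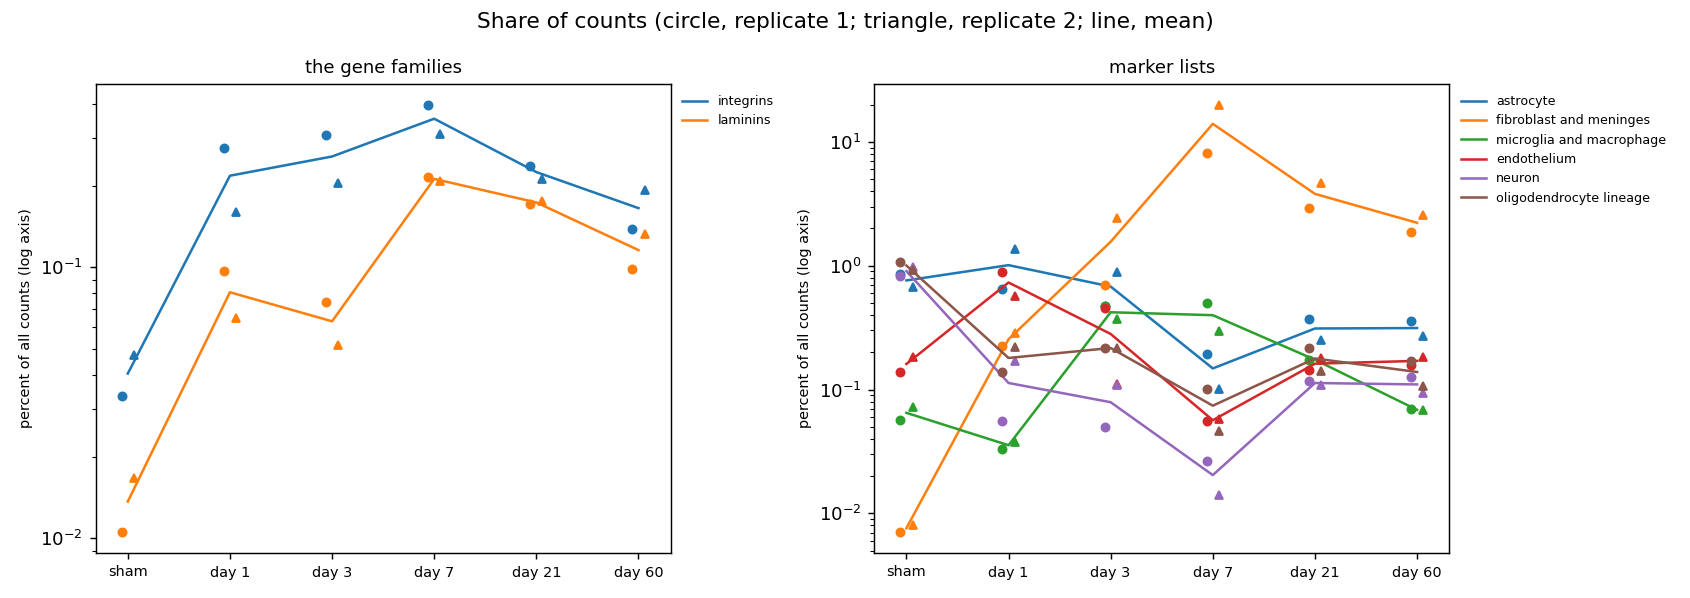
Percent of all counts taken by the integrin and laminin genes (left) and by marker lists of 6 cell types (right) in sham and at each time after stroke, on log axes. Circles are replicate 1, triangles are replicate 2 and lines join the group means. Integrins took 0.353% of counts on day 7 and 0.0405% in sham, and the fibroblast and meninges list took 13.98% on day 7 and 0.00759% in sham.

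Both families took a larger share of the transcripts at each time after stroke than in sham. Integrin genes made up 0.0405% ± 0.00988 in sham, 0.217% ± 0.0807 on day 1, 0.256% ± 0.0731 on day 3, 0.353% ± 0.0619 on day 7, 0.224% ± 0.0179 on day 21 and 0.165% ± 0.0383 on day 60 (SD, n = 2 each). Laminin genes made up 0.0137% ± 0.00435 in sham, 0.0808% ± 0.0223 on day 1, 0.0631% ± 0.0163 on day 3, 0.212% ± 0.00587 on day 7, 0.173% ± 0.00341 on day 21 and 0.116% ± 0.0237 on day 60 (SD, n = 2 each). In each family both libraries of every time after stroke lay above both sham libraries, and the mean was highest on day 7. The laminin libraries of days 7 and 21 lay above those of days 1, 3 and 60 without overlap, whereas the integrin libraries of days 1, 3 and 21 overlapped one another.

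Gene by gene, most members that changed were higher after stroke. A gene was called higher or lower at an adjusted p under 0.05 in edgeR's quasi-likelihood test, adjusted by Benjamini and Hochberg over all 15635 genes tested, and every adjusted p below comes from that test unless another is named. The filter on low counts kept 36 of the 37 members; Itgb2l, with 0 to 14 counts per library, was not tested. On day 1, 16 members were higher and 1 was lower than in sham, where 16.7% of all tested genes were higher and 13.9% lower. On day 3, 21 members were higher and 0 lower, against 18% and 14.2% of all genes, or 32.2% in either direction. The largest count came on day 7, with 24 members higher and 1 lower, against 23.2% and 19.8% of all genes, or 43% in either direction. On day 21 there were 21 members higher and 0 lower, against 17.8% and 15.4% of all genes. On day 60 there were 17 members higher and 0 lower, against 16.8% and 14.8% of all genes. The median log2 fold change of the 36 tested members was 1.45 on day 1, 2.04 on day 3, 2.82 on day 7, 2.42 on day 21 and 1.74 on day 60. Itgb6 had 0 counts on days 3 and 60, and there it counts as below the median, as it would at a value of 0. Over all tested genes the same medians were 0.06, 0.16, 0.13, 0.07 and 0.01. The 0 lower calls of days 3, 21 and 60 come with 0 lower members at an unadjusted p under 0.05 in edgeR, and DESeq2 called 1, 0 and 0 lower. Without sham replicate 1 the number of members higher was 9 on day 1 and 12 on day 3, and without day 1 replicate 1 it was 10 on day 1. DESeq2 called 3 members lower on day 7, and 2 were lower once replicate number was added as a block. Over all genes DESeq2 called 7695 on day 7 and the block 8459, against 6719 in edgeR without the block. In the fits named here that left out a library, fewer of all genes were called too. The 5 comparisons share the sham libraries and so are not independent of each other.

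**Figure D2:**
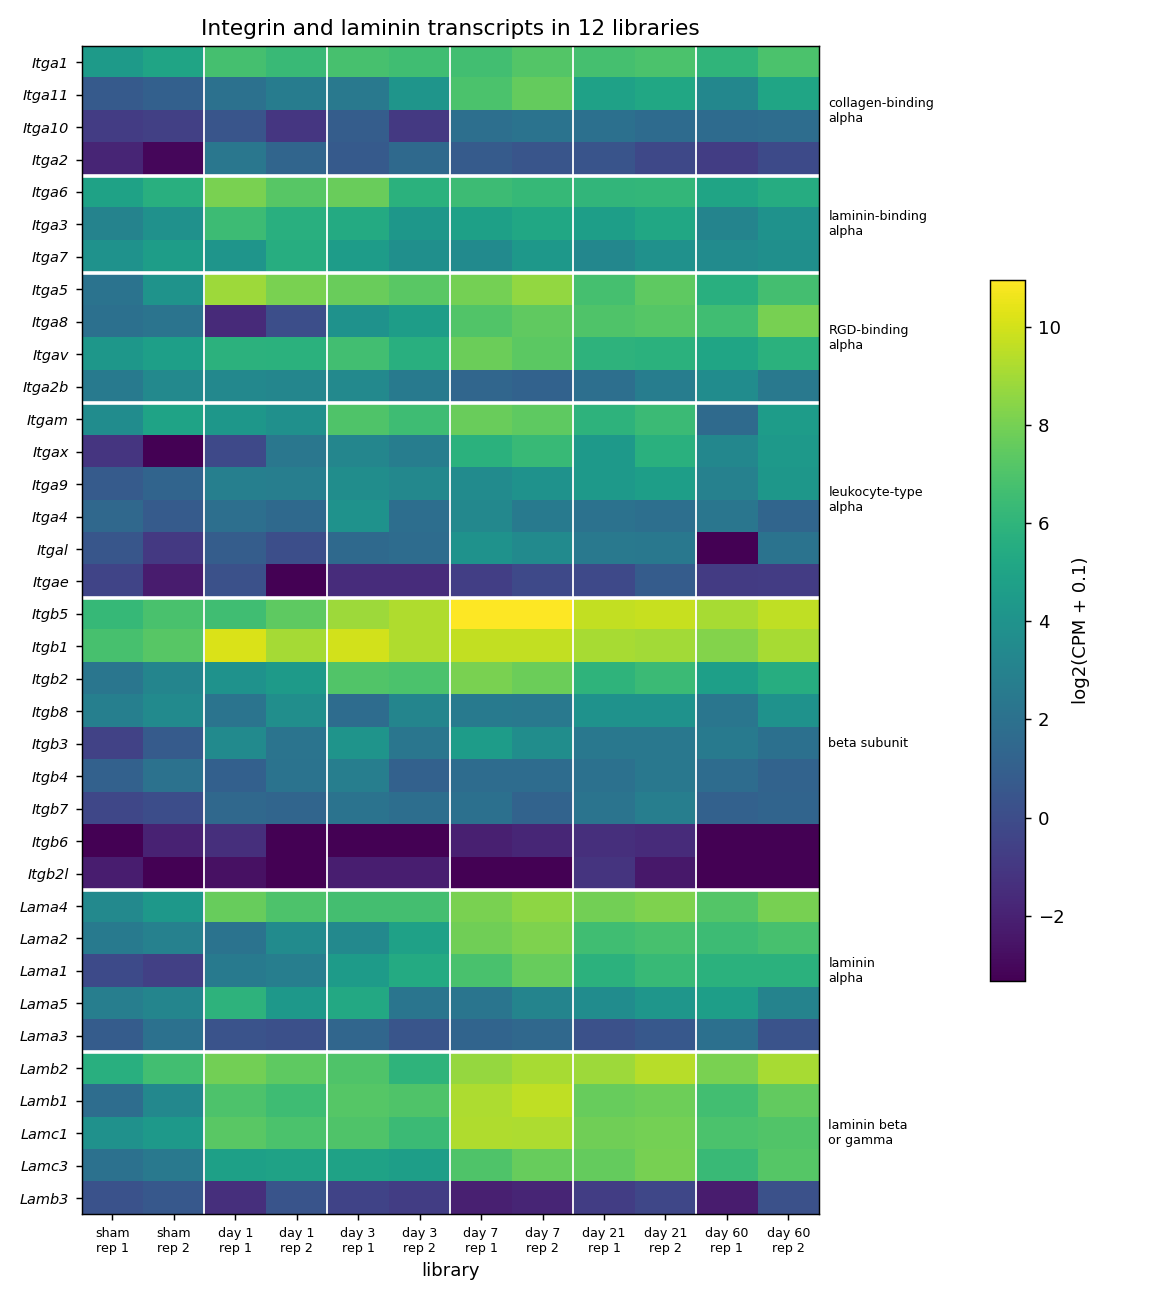
Level of 36 of the 37 integrin and laminin genes (down the page, grouped by role) in each of the 12 libraries (across), as log2 of CPM (counts scaled to the size of the library) plus 0.1 on a colour scale. White lines part the groups of libraries and the roles. Most genes of each role are brighter in the day 7 libraries than in sham.

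**Figure D3:**
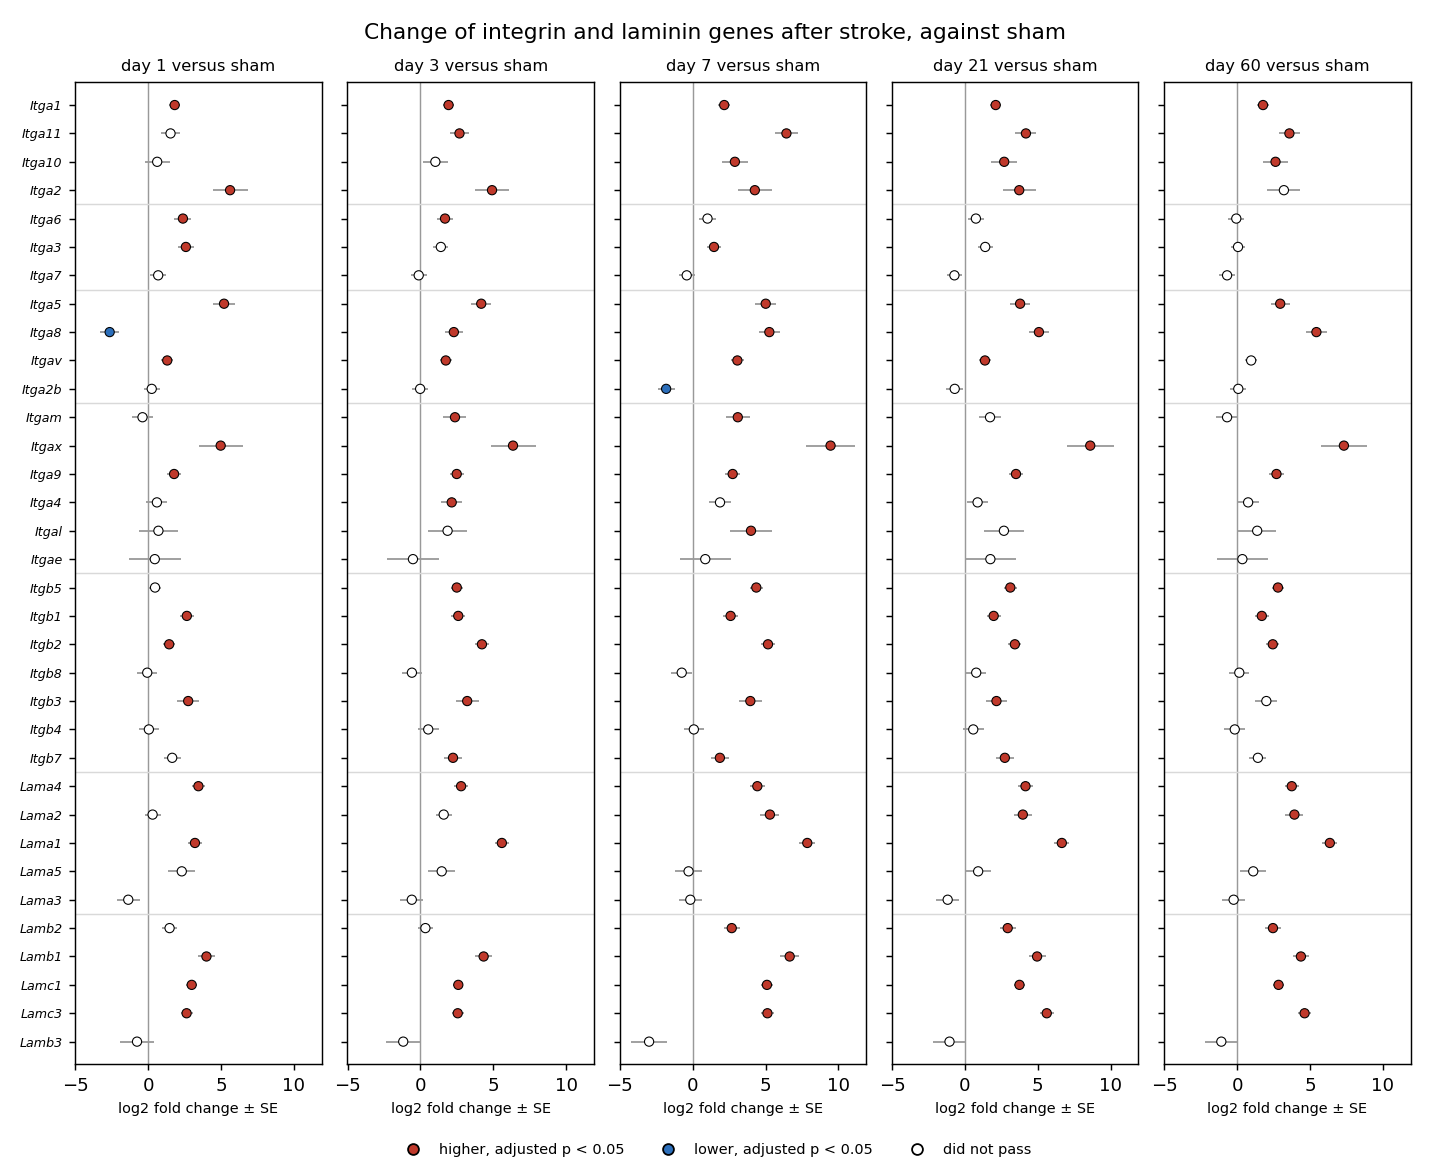
Log2 fold change with its standard error for 34 members at each of 5 times after stroke against sham, with filled points where the adjusted p was under 0.05. Itgb6, with 0 counts in every library of days 3 and 60, and Itgb2l, which was not tested, are not drawn; 24 points are filled as higher on day 7 and 16 on day 1.

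Over the 5 times the members made 101 calls, spread over 27 genes. Higher at all 5 times were 11 members: the integrins Itga1, Itga5, Itga9, Itgax, Itgb1 and Itgb2, and the laminins Lama1, Lama4, Lamb1, Lamc1 and Lamc3. Itga8 alone was lower at one time and higher at others, and 9 members passed at no time. Of the 101 calls, 65 passed under each of 17 alternative settings and 36 lost significance when 1 library was left out.

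The 250 bases before the transcription start are shown for Itga5, Itgb1, Itgb5 and Lamb1, 4 members whose levels described below are among the highest of their roles after stroke. They are given 5′ to 3′ on the strand of the gene from RefSeq's GRCm38.p6 annotation, and capitals mark each GC box, GGGCGG or its reverse complement CCGCCC.
Itga5, chr15:103366792-103367041, minus strand: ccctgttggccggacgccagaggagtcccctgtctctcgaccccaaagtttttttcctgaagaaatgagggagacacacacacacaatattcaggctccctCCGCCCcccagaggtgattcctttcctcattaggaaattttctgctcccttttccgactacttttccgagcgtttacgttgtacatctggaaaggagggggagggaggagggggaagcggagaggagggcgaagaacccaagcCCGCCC
Itgb1, chr8:128685404-128685653, plus strand: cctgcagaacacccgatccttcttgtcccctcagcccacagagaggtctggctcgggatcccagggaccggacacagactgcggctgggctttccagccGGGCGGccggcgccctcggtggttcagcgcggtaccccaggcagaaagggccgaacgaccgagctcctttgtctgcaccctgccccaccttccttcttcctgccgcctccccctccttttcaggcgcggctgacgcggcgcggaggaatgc
Itgb5, chr16:33829415-33829664, plus strand: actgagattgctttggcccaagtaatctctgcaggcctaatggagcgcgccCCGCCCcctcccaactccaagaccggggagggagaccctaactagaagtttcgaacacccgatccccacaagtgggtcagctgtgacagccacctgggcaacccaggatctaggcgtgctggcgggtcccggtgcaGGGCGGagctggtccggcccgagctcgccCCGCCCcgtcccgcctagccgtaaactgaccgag
Lamb1, chr12:31265043-31265292, plus strand: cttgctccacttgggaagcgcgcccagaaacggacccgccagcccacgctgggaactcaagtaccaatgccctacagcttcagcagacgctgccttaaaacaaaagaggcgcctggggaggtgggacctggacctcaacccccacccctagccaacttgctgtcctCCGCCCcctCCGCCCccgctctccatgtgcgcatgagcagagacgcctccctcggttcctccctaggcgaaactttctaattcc
The promoter of Itgb5 holds 3 GC boxes, those of Itga5 and Lamb1 hold 2 each and that of Itgb1 holds 1. RefSeq promoters were matched for 24 of the 37 members, with 27 starts in all. A GC box lay in 9 of these 27 promoters and in 32.7% of 32851 promoters of the same length. The letters TGANTCA, the site of the AP-1 factors read on both strands, lay in 1 of 27 and in 6.75% of all. The letters GAGGAA, the core of the site of the myeloid factor Spi1 read on both strands, lay in 14 of 27 and in 23.3% of all. These matches describe letters in the window and are not evidence of binding.

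Among the beta subunits, 3 of 8 tested were higher on day 1, 5 at each of days 3, 7 and 21, and 3 on day 60, and 0 were lower. Of all tested genes, 16.7% were higher on day 1, 18% on day 3, 23.2% on day 7, 17.8% on day 21 and 16.8% on day 60. Lower were 13.9%, 14.2%, 19.8%, 15.4% and 14.8% in turn. In a role of so few genes, 0 lower is near these shares. Levels are given as CPM, counts scaled to the size of the library, for replicates 1 and 2 of each group in turn, and fold changes as log2 values ± SE. Itgb5 pairs with Itgav to form a vitronectin receptor. Itgb5 had 75.9 and 115 CPM in sham, 94.3 and 169 on day 1, 463 and 611 on day 3, 1996 and 1939 on day 7, 796 and 858 on day 21, and 543 and 788 on day 60. The day 1 libraries overlapped those of sham, and every later library stood above both. Itgb5 had a log2 fold change against sham of 0.47 ± 0.40 on day 1 (adjusted p = 0.405), 2.49 ± 0.43 on day 3 (adjusted p = 0.00236), 4.37 ± 0.46 on day 7 (adjusted p = 0.000115), 3.12 ± 0.44 on day 21 (adjusted p = 0.000748) and 2.80 ± 0.43 on day 60 (adjusted p = 0.00136). Itgb1 is the partner of most collagen, laminin and fibronectin receptors. Itgb1 had 112 and 155 CPM in sham, 1152 and 521 on day 1, 1005 and 605 on day 3, 799.8 and 819 on day 7, 543 and 505 on day 21, and 323 and 539 on day 60. All 10 stroke libraries were above both sham libraries, with the 2 highest in replicate 1 of days 1 and 3. Itgb1 had a log2 fold change against sham of 2.65 ± 0.49 on day 1 (adjusted p = 0.00455), 2.59 ± 0.49 on day 3 (adjusted p = 0.00370), 2.60 ± 0.49 on day 7 (adjusted p = 0.00202), 1.97 ± 0.48 on day 21 (adjusted p = 0.01102) and 1.69 ± 0.47 on day 60 (adjusted p = 0.0224). Per kilobase of exon, Itgb1 exceeded Itgb5 on day 1, with 205 ± 109 CPM per kb for Itgb1 and 37.1 ± 14.9 for Itgb5. On day 7 the order was the other way round, with 198 ± 3.31 for Itgb1 and 554 ± 11.4 for Itgb5 (SD, n = 2 each). Single alternatives ended the call of Itgb1 on day 21 without sham replicate 1 or day 21 replicate 1 (adjusted p up to 0.0862) and Itgb1 on day 60 without either sham library or day 60 replicate 2 (adjusted p up to 0.138).

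Itgb2 encodes CD18, the common beta chain of the leukocyte integrins. Itgb2 had 4.78 and 8.82 CPM in sham, 15.2 and 21.8 on day 1, 134 and 121 on day 3, 274 and 218 on day 7, 63.4 and 83.8 on day 21, and 26.3 and 48.2 on day 60. Stroke libraries were above sham at each time, and those of days 3 and 7 were the highest. Itgb2 had a log2 fold change against sham of 1.44 ± 0.42 on day 1 (adjusted p = 0.0279), 4.22 ± 0.47 on day 3 (adjusted p = 0.000345), 5.17 ± 0.49 on day 7 (adjusted p = 7.3e-05), 3.43 ± 0.45 on day 21 (adjusted p = 0.000555) and 2.45 ± 0.44 on day 60 (adjusted p = 0.00291). Itgb3 joins Itgav or the platelet subunit Itga2b. Itgb3 had 0.597 and 1.64 CPM in sham, 11.2 and 4.35 on day 1, 16.7 and 4.81 on day 3, 23.3 and 12.8 on day 7, 5.15 and 5.24 on day 21, and 5.499 and 3.83 on day 60. It was called higher on days 1, 3, 7 and 21. Itgb3 had a log2 fold change against sham of 2.74 ± 0.77 on day 1 (adjusted p = 0.0226), 3.21 ± 0.78 on day 3 (adjusted p = 0.0117), 3.96 ± 0.80 on day 7 (adjusted p = 0.00305) and 2.17 ± 0.75 on day 21 (adjusted p = 0.0486). The value of day 3 was 2.01 without day 3 replicate 1. Itgb7, a lymphocyte subunit that joins Itga4 or Itgae, had at most 6.69 CPM in any library. Itgb7 had 0.717 and 0.924 CPM in sham, 2.72 and 2.46 on day 1, 4.303 and 3.51 on day 3, 3.83 and 2.25 on day 7, 4.37 and 6.69 on day 21, and 2.06 and 2.38 on day 60. Its levels did not overlap sham at any time, and it passed on days 3, 7 and 21. Itgb7 had a log2 fold change against sham of 2.23 ± 0.60 on day 3 (adjusted p = 0.0178), 1.87 ± 0.59 on day 7 (adjusted p = 0.02801) and 2.74 ± 0.61 on day 21 (adjusted p = 0.00737). Single alternatives ended the call of Itgb2 on day 1 without sham replicate 1 or either day 1 library or day 21 replicate 1 (adjusted p up to 0.171), Itgb3 on day 1 without sham replicate 1 or day 1 replicate 1 (adjusted p up to 0.146), Itgb3 on day 3 without sham replicate 1 or day 3 replicate 1 (adjusted p up to 0.0795) and Itgb3 on day 21 without any 1 of 8 libraries or with the size factors of DESeq2 or with plain library totals (adjusted p up to 0.225). The same held for Itgb7 on day 3 without either sham library or day 3 replicate 1 (adjusted p up to 0.101), on day 7 without any 1 of 5 libraries or with plain library totals (0.159) and on day 21 without sham replicate 1 or day 21 replicate 2 (0.06196). The microglia and macrophage list was above sham, as Itgb2 was, on days 3, 7 and 21, with 0.4705% and 0.371%, then 0.5003% and 0.296% and then 0.175% and 0.173% of counts, against 0.0570% and 0.0726% in sham. As a share of counts the list was below sham on day 1, with 0.0331% and 0.0379%. On day 60 it was within the sham range, with one library at 0.06904% and the other at 0.06797%. Itgb2 was called higher at both times. By gene, 0 of the 10 markers were higher and 2 lower on day 1, and 1 was higher and 2 lower on day 60. The day 60 means of Cd68, C1qa, Tmem119, Tyrobp and Mrc1 were above sham, and those of the other markers below. Cd68 had 120 CPM then, against 21.7 in sham, and P2ry12 had 3.16, against 71.4. The mean of P2ry12 was below sham at every time. The part of these cells in the result was not tested.

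The other beta subunits passed at no time. Itgb8, which joins Itgav and binds latent TGF-beta, had group means of 5.44 to 15.7 CPM after stroke and 9.14 ± 3.04 CPM in sham. Itgb4, the partner of Itga6 in hemidesmosomes, had means of 2.74 to 4.54 CPM after stroke and 3.04 ± 1.42 CPM in sham. Itgb6, an epithelial partner of Itgav, had 0 to 26 counts per library, and Itgb2l, a paralog of Itgb2, had 0 to 14.

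The alpha subunits that bind the arginine-glycine-aspartate (RGD) motif of fibronectin, vitronectin and related ligands included members that moved in either direction. Of 4 members, 2 were higher and 1 lower on day 1, 3 were higher on day 3, 3 higher and 1 lower on day 7, 3 higher on day 21 and 2 higher on day 60. Over these times 16.7% to 23.2% of all tested genes were higher and 13.9% to 19.8% lower. Itga5 is the alpha subunit of the main fibronectin receptor. Itga5 had 4.18 and 15.9 CPM in sham, 474 and 271 on day 1, 209 and 156 on day 3, 256 and 397 on day 7, 109 and 170.4 on day 21, and 52.1 and 105 on day 60. All stroke libraries lay above both sham libraries, and the highest was replicate 1 of day 1. Itga5 had a log2 fold change against sham of 5.20 ± 0.73 on day 1 (adjusted p = 0.00167), 4.17 ± 0.69 on day 3 (adjusted p = 0.00204), 5.01 ± 0.72 on day 7 (adjusted p = 0.000504), 3.79 ± 0.68 on day 21 (adjusted p = 0.00265) and 2.96 ± 0.65 on day 60 (adjusted p = 0.00821). These 5 calls held under all 17 alternatives.

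Itga8, which binds nephronectin with Itgb1, was the member that changed direction. Itga8 had 3.76 and 4.43 CPM in sham, 0.222 and 0.975 on day 1, 15.8 and 24.4 on day 3, 135 and 181 on day 7, 130.2 and 148 on day 21, and 95.2 and 262 on day 60. Both day 1 libraries were below sham, and all libraries of days 3 to 60 were above it. Itga8 had a log2 fold change against sham of -2.65 ± 0.64 on day 1 (adjusted p = 0.0127), 2.29 ± 0.62 on day 3 (adjusted p = 0.0182), 5.26 ± 0.70 on day 7 (adjusted p = 0.000352), 5.08 ± 0.70 on day 21 (adjusted p = 0.000663) and 5.44 ± 0.71 on day 60 (adjusted p = 0.000551). Without day 1 replicate 2 the day 1 value was -4.33. Single alternatives ended the call of Itga8 on day 1 without sham replicate 2 or day 1 replicate 1 (adjusted p up to 0.0612) and Itga8 on day 3 without either sham library or day 3 replicate 2 (adjusted p up to 0.104). Itgav, the alpha chain shared by several beta subunits, Itgb5 among them, was higher at 4 times. Itgav had 18.7 and 26.6 CPM in sham, 57.1 and 54.9 on day 1, 99.6 and 51.9 on day 3, 218 and 162 on day 7, 61.05 and 56.6 on day 21, and 33.2 and 55.1 on day 60. Stroke libraries were above sham at each time, and the 2 of day 7 were the highest. Itgav had a log2 fold change against sham of 1.30 ± 0.41 on day 1 (adjusted p = 0.03497), 1.74 ± 0.41 on day 3 (adjusted p = 0.0103), 3.07 ± 0.43 on day 7 (adjusted p = 0.000458), 1.38 ± 0.41 on day 21 (adjusted p = 0.0261) and 0.96 ± 0.40 on day 60 (adjusted p = 0.0944). The value of day 3 was 1.15 without day 3 replicate 1. Calls of Itgav were lost on day 1 without any 1 of 6 libraries (adjusted p up to 0.185), on day 3 without sham replicate 1 or day 3 replicate 1 (0.0798) and on day 21 without either sham library or either day 21 library (0.156). Itga2b, which forms the platelet fibrinogen receptor with Itgb3, was lower on day 7, with 2.49 and 2.17 CPM, against 5.79 and 10.6 CPM in sham. Itga2b had a log2 fold change against sham of -1.82 ± 0.59 on day 7 (adjusted p = 0.0291). This call was lost without sham replicate 2 or either day 7 library (adjusted p up to 0.162). Platelet and megakaryocyte markers took 0.000792% and 0.000463% of counts on day 7 and 0.000754% and 0.000323% in sham. Their genes did not all follow this share. The mean of Pf4 was above sham on day 7, with 7.14 CPM against 1.39. Those of Ppbp, Gp5, Gp9, Gp1ba and Gp6 were below sham, as that of Itga2b was, Gp5 with 0.123 CPM against 0.898. Of 5 tested markers, 1 was higher and 1 lower on day 7. The part of these cells was not tested.

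The collagen-binding alpha subunits, all of which pair with Itgb1, were higher in 2 of 4 on day 1, 3 of 4 on day 3, 4 of 4 on days 7 and 21 and 3 of 4 on day 60. Over these times 16.7% to 23.2% of all tested genes were higher. Itga1, which prefers the collagen IV of basement membranes, was higher at all 5 times. Itga1 had 21.6 and 32.1 CPM in sham, 106 and 82.4 on day 1, 110.2 and 94.2 on day 3, 101 and 139.5 on day 7, 109 and 123 on day 21, and 64.1 and 119.8 on day 60. No stroke library overlapped sham. Itga1 had a log2 fold change against sham of 1.81 ± 0.39 on day 1 (adjusted p = 0.00824), 1.93 ± 0.40 on day 3 (adjusted p = 0.00545), 2.16 ± 0.40 on day 7 (adjusted p = 0.00183), 2.11 ± 0.40 on day 21 (adjusted p = 0.00334) and 1.78 ± 0.39 on day 60 (adjusted p = 0.00821). Itga11, a receptor for fibrillar collagen known from fibroblasts, reached its highest level on day 7. Itga11 had 1.55 and 2.001 CPM in sham, 3.89 and 6.41 on day 1, 5.32 and 17.5 on day 3, 121 and 189 on day 7, 28.7 and 36.7 on day 21, and 9.85 and 33.2 on day 60. Both libraries of each later time were above sham, and the 2 of day 7 stood far above all others. Itga11 had a log2 fold change against sham of 2.68 ± 0.68 on day 3 (adjusted p = 0.0143), 6.43 ± 0.80 on day 7 (adjusted p = 0.000252), 4.19 ± 0.72 on day 21 (adjusted p = 0.00221) and 3.59 ± 0.71 on day 60 (adjusted p = 0.00472). The value of day 3 was 1.49 without day 3 replicate 2. Single alternatives ended the call of Itga1 on day 1 without sham replicate 1 or day 1 replicate 1 (adjusted p up to 0.0685), Itga1 on day 3 without sham replicate 1 (adjusted p up to 0.0505), Itga1 on day 60 without sham replicate 1 or day 60 replicate 2 (adjusted p up to 0.06999) and Itga11 on day 3 without either sham library or day 3 replicate 2 (adjusted p up to 0.127). As a share of counts the fibroblast and meninges list was likewise highest on day 7, with 13.98% on day 7 and 0.00759% in sham. Of its genes, Dcn, Lum, Pdgfra, Aldh1a2 and Slc6a13 had their highest means at other times. The part of these cells in the result was not tested.

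Itga2 and Itga10 were rare. Itga2, a receptor for fibrillar collagen on platelets and epithelia, had 3 and 2 counts in the sham libraries. Itga2 had 0.179 and 0.0192 CPM in sham, 4.89 and 2.45 on day 1, 1.58 and 2.88 on day 3, 1.61 and 1.26 on day 7, 1.23 and 0.761 on day 21, and 0.515 and 0.841 on day 60. Every stroke library was above sham, with the highest value in replicate 1 of day 1. Itga2 had a log2 fold change against sham of 5.62 ± 1.20 on day 1 (adjusted p = 0.00779), 4.91 ± 1.17 on day 3 (adjusted p = 0.01095), 4.27 ± 1.16 on day 7 (adjusted p = 0.0138) and 3.73 ± 1.15 on day 21 (adjusted p = 0.0306). These folds rest on 5 sham counts in all, and that of day 21 was 2.45 without sham replicate 2. Itga10, known from cartilage, was higher at the 3 late times. Itga10 had 0.478 and 0.558 CPM in sham, 1.28 and 0.372 on day 1, 1.77 and 0.4201 on day 3, 3.56 and 4.22 on day 7, 3.697 and 3.097 on day 21, and 3.09 and 3.4003 on day 60. The libraries of days 1 and 3 overlapped sham and those of days 7, 21 and 60 did not. Itga10 had a log2 fold change against sham of 2.90 ± 0.89 on day 7 (adjusted p = 0.0241), 2.70 ± 0.88 on day 21 (adjusted p = 0.0393) and 2.63 ± 0.88 on day 60 (adjusted p = 0.0446). Calls of Itga10 were lost on day 7 without either sham library or either day 7 library (adjusted p up to 0.112), on day 21 without any 1 of 7 libraries (0.158) and on day 60 without any 1 of 8 libraries or with the size factors of DESeq2 or with plain library totals (0.169). Single alternatives ended the call of Itga2 on day 3 without sham replicate 2 (adjusted p up to 0.0702), Itga2 on day 7 without sham replicate 2 (adjusted p up to 0.0883) and Itga2 on day 21 without sham replicate 2 or either day 21 library (adjusted p up to 0.168).

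Of the 3 laminin-binding alpha subunits, 2 were higher on day 1, 1 on day 3, 1 on day 7 and 0 on days 21 and 60, where 16.7%, 18%, 23.2%, 17.8% and 16.8% of all genes were higher. Itga6 joins Itgb1 or Itgb4. Itga6 had 30.1 and 51.5 CPM in sham, 273 and 152 on day 1, 206 and 56.5 on day 3, 89.5 and 75.7 on day 7, 67.7 and 69.99 on day 21, and 31.8 and 46.5 on day 60. Day 1 had the highest mean, and of the day 3 libraries replicate 2 lay near sham while replicate 1 did not. Itga6 had a log2 fold change against sham of 2.38 ± 0.59 on day 1 (adjusted p = 0.0137), 1.69 ± 0.57 on day 3 (adjusted p = 0.0466), 1.02 ± 0.56 on day 7 (adjusted p = 0.1697), 0.75 ± 0.56 on day 21 (adjusted p = 0.329) and -0.06 ± 0.56 on day 60 (adjusted p = 0.951). Without day 3 replicate 1 the day 3 value was 0.43. Itga3 also pairs with Itgb1. Itga3 had 8.18 and 14.997 CPM in sham, 87.8 and 51.7 on day 1, 42.5 and 18.9 on day 3, 27.3 and 36.7 on day 7, 25.4 and 35.7 on day 21, and 8.76 and 15.4 on day 60. Its day 60 libraries overlapped sham and those of the other times did not. Itga3 had a log2 fold change against sham of 2.58 ± 0.53 on day 1 (adjusted p = 0.00678), 1.398 ± 0.51 on day 3 (adjusted p = 0.0608), 1.46 ± 0.51 on day 7 (adjusted p = 0.0414), 1.39 ± 0.51 on day 21 (adjusted p = 0.0596) and 0.06 ± 0.50 on day 60 (adjusted p = 0.943). Single alternatives ended the call of Itga6 on day 1 without sham replicate 1 or day 1 replicate 1 (adjusted p up to 0.0983), Itga6 on day 3 without any 1 of 10 libraries or with the size factors of DESeq2 (adjusted p up to 0.547), Itga3 on day 1 without sham replicate 1 (adjusted p up to 0.0555) and Itga3 on day 7 without any 1 of 5 libraries or with the size factors of DESeq2 or with plain library totals (adjusted p up to 0.221). Itga7, known from muscle, passed at no time. Itga7 had 15.6 and 25.1 CPM in sham, 17.4 and 48.03 on day 1, 23.98 and 13.7 on day 3, 11.3 and 19.4 on day 7, 9.75 and 14.99 on day 21, and 11.7 and 13.6 on day 60. Its libraries lay below sham on days 21 and 60 and overlapped it at the other times, and its exons overlap Mettl7b on the other strand.

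Endothelial markers were above sham, as Itga6 and Itga3 were, on day 1. The 10-gene endothelium list had 0.8896% and 0.574% of counts on day 1, 0.452% and 0.1098% on day 3, 0.0552% and 0.0578% on day 7 and 0.138% and 0.184% in sham, and 6 of its 10 genes were higher on day 1. As a share of counts the list was below sham on day 7, where Itga3 was called higher. On day 21 it had 0.144% and 0.179% and overlapped sham, where Itga3 did not. By gene, 0 of its 10 were higher and 0 lower on day 7, and the same held on day 21. Its 2 day 3 libraries differed in the same direction as those of Itga6 and Itga3, and the part of the endothelium in these values was not tested.

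Of 6 alpha subunits typical of leukocytes, with Itga4 and Itga9 counted here, 2 were higher on day 1, 4 on day 3, 4 on day 7, 2 on day 21 and 2 on day 60, and 0 were lower. Over these times 16.7% to 23.2% of all tested genes were higher and 13.9% to 19.8% lower. In a role of 6 genes, 2 higher and 0 lower lie near those shares. Itgam encodes CD11b, the alpha chain of complement receptor 3 on microglia and macrophages. Itgam had 12.2 and 31.4 CPM in sham, 18.96 and 14.4 on day 1, 133 and 93.4 on day 3, 206 and 168 on day 7, 60.2 and 84.5 on day 21, and 2.98 and 23.9 on day 60. The libraries of days 3, 7 and 21 stood above sham, and those of days 1 and 60 overlapped it. Itgam had a log2 fold change against sham of 2.37 ± 0.79 on day 3 (adjusted p = 0.04305) and 3.10 ± 0.81 on day 7 (adjusted p = 0.0116). The day 3 call of Itgam was lost without any 1 of 10 libraries (adjusted p up to 0.213) and the day 7 call without sham replicate 1 (0.08599). The microglia and macrophage markers took 0.4705% and 0.371% of counts on day 3 and 0.0570% and 0.0726% in sham. As a summed share they were above sham on days 3, 7 and 21, as Itgam was. Among them the mean of P2ry12 was below sham at these times, and that of Aif1 on day 21. The part of these cells was not tested. Itgax encodes CD11c, found on dendritic cells and on activated microglia. Itgax had 0.358 and 0 CPM in sham, 0.778 and 5.03 on day 1, 9.18 and 6.43 on day 3, 55.1 and 79.3 on day 7, 20.3 and 53.7 on day 21, and 9.68 and 20.8 on day 60. The sham libraries held 6 and 0 counts, every stroke library held more CPM than both, and the 2 of day 7 were the highest. Itgax had a log2 fold change against sham of 4.97 ± 1.51 on day 1 (adjusted p = 0.0316), 6.35 ± 1.54 on day 3 (adjusted p = 0.0117), 9.46 ± 1.67 on day 7 (adjusted p = 0.00145), 8.60 ± 1.63 on day 21 (adjusted p = 0.00342) and 7.33 ± 1.58 on day 60 (adjusted p = 0.00714). These folds rest on the 6 sham counts: without sham replicate 2 they were 4.43 on day 3, 7.54 on day 7, 6.68 on day 21 and 5.41 on day 60, and without day 1 replicate 2 that of day 1 was 2.96. Without sham replicate 1 the sham group is at 0 counts, and the fitted values, from 10.69 on day 1 to 15.19 on day 7, then depend on the prior count and are no bound. The day 1 call was lost without sham replicate 2 or day 1 replicate 2 (adjusted p up to 0.188). Itgam and Itgax are neighbouring paralogs on mouse chromosome 7, at chr7:128062640-128118491 and chr7:128129547-128150657 in GRCm38, so reads common to both could be split between them by the counting.

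Itga9, a receptor for tenascin-C and Vcam1, was higher at all 5 times. Itga9 had 1.61 and 2.38 CPM in sham, 7.06 and 6.73 on day 1, 12.8 and 9.89 on day 3, 11.6 and 15.4 on day 7, 20.1 and 25.7 on day 21, and 7.62 and 18.5 on day 60. No stroke library overlapped sham, and both day 21 libraries lay above those of the other times. Itga9 had a log2 fold change against sham of 1.77 ± 0.48 on day 1 (adjusted p = 0.0205), 2.49 ± 0.49 on day 3 (adjusted p = 0.00474), 2.74 ± 0.50 on day 7 (adjusted p = 0.00169), 3.51 ± 0.51 on day 21 (adjusted p = 0.000955) and 2.70 ± 0.50 on day 60 (adjusted p = 0.00341). Of these, the day 1 call alone was lost in an alternative, without either sham library or either day 1 library (adjusted p up to 0.122). Itga4, the Vcam1 receptor of lymphocytes and monocytes, was higher on day 3 alone, with 15.4 and 3.54 CPM, against 2.69 and 1.62 CPM in sham. Itga4 had a log2 fold change against sham of 2.14 ± 0.74 on day 3 (adjusted p = 0.0491). Without day 3 replicate 1 this value was 0.69, and the call was lost without any 1 of 10 libraries or with the size factors of DESeq2 or with plain library totals (adjusted p up to 0.504). Some exons of Itga4 overlap Cerkl on the other strand. Itgal, the Icam receptor of leukocytes, was higher on day 7 alone, with 15.2 and 11.5 CPM, against 1.31 and 0.423 CPM in sham. Itgal had a log2 fold change against sham of 4.002 ± 1.43 on day 7 (adjusted p = 0.0443). This call too was lost without any 1 of 10 libraries or with the size factors of DESeq2 or with plain library totals (adjusted p up to 0.196). Itgae, the E-cadherin receptor of T cells in epithelia, had at most 1.66 CPM and passed at no time. The 10 lymphocyte markers took 0.00744% and 0.00690% of counts on day 3, 0.00588% and 0.00361% on day 7 and 0.000573% and 0.000432% in sham, where 7 of the 10 had 0 counts in both libraries. The list holds Ptprc, a gene of all leukocytes, whose normalised level was 57.3 ± 9.12 CPM on day 3, 50.4 ± 5.83 on day 7 and 2.04 ± 0.0769 in sham. Of the 10 markers, 2 were higher on day 3 and 1 on day 7, where 18% and 23.2% of all genes were higher.

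**Figure D4:**
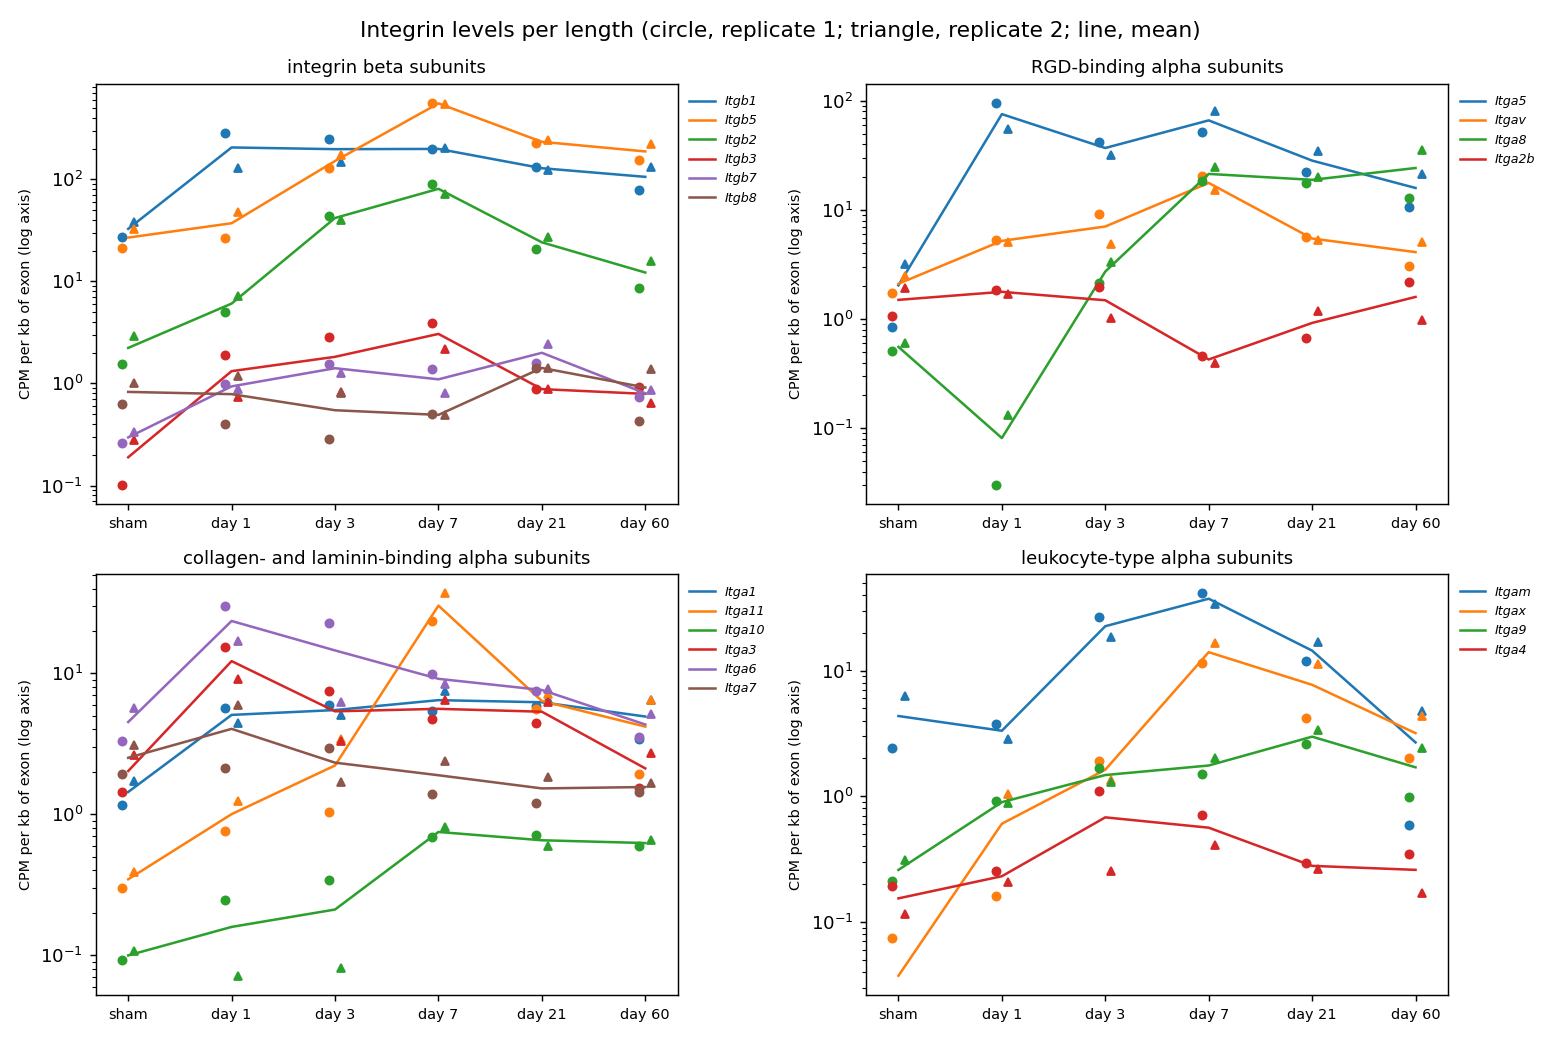
Level of 20 integrin genes in CPM per kb of exon, on log axes, in sham and at each time after stroke; circles are replicate 1, triangles replicate 2 and lines the group means, and a library at 0 counts has no point. Itgb5 stands above Itgb1 from day 7 on, with 554 and 198 CPM per kb on day 7, and Itga8 is the one member with its lowest mean on day 1 and its highest on day 60.

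The laminin alpha chains, which carry the integrin-binding end of the trimer, were higher in 2 of 5 on days 1 and 3 and in 3 of 5 on days 7, 21 and 60, and 0 were lower. Over these times 16.7% to 23.2% of all tested genes were higher and 13.9% to 19.8% lower, so that 0 lower of 5 is near that share. Lama4, a chain of vascular basement membranes, was called at every time. Lama4 had 10.5 and 19.3 CPM in sham, 199 and 127 on day 1, 105 and 102 on day 3, 274 and 373 on day 7, 240.3 and 293 on day 21, and 141 and 261 on day 60. All stroke libraries stood above both sham libraries. Lama4 had a log2 fold change against sham of 3.44 ± 0.47 on day 1 (adjusted p = 0.00157), 2.79 ± 0.46 on day 3 (adjusted p = 0.00194), 4.44 ± 0.49 on day 7 (adjusted p = 0.000146), 4.16 ± 0.49 on day 21 (adjusted p = 0.000290) and 3.75 ± 0.48 on day 60 (adjusted p = 0.000482). Lama1, a chain of the pial basement membrane and of embryonic tissue, was near absent from sham. Lama1 had 0.836 and 0.558 CPM in sham, 5.61 and 6.83 on day 1, 22.6 and 42.2 on day 3, 114 and 201 on day 7, 57.6 and 78.2 on day 21, and 56.5 and 54.7 on day 60. Its levels did not overlap sham at any time and were highest on day 7. Lama1 had a log2 fold change against sham of 3.21 ± 0.46 on day 1 (adjusted p = 0.00175), 5.59 ± 0.50 on day 3 (adjusted p = 0.000146), 7.87 ± 0.55 on day 7 (adjusted p = 3.4e-05), 6.65 ± 0.52 on day 21 (adjusted p = 5.1e-05) and 6.36 ± 0.52 on day 60 (adjusted p = 5.9e-05). Lama2, the chain that astrocytes and pericytes add to the outer vascular membrane, joined later. Lama2 had 5.55 and 7.62 CPM in sham, 4.17 and 11.98 on day 1, 10.6 and 29.2 on day 3, 229 and 292 on day 7, 94.4 and 113 on day 21, and 89.5 and 112 on day 60. Its day 1 libraries overlapped sham, and those of days 7, 21 and 60 stood far above. Lama2 had a log2 fold change against sham of 1.60 ± 0.56 on day 3 (adjusted p = 0.0529), 5.30 ± 0.66 on day 7 (adjusted p = 0.000248), 3.98 ± 0.62 on day 21 (adjusted p = 0.00130) and 3.93 ± 0.62 on day 60 (adjusted p = 0.00151).

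Lama5 and Lama3 passed at no time. Lama5, an endothelial and epithelial chain, had 59.5 and 19.3 CPM on day 1 and 39.5 and 4.57 on day 3, against 6.81 and 9.1004 CPM in sham. Lama5 had a log2 fold change of 2.302 ± 0.94 on day 1 (adjusted p = 0.0888) and 1.46 ± 0.92 on day 3 (adjusted p = 0.247). The 2 day 3 libraries lay on either side of sham and differed the same way as the endothelium list, whose part was not tested. Lama3, a chain of epithelial laminin, had group means of 1.104 to 2.54 CPM after stroke and 2.83 ± 1.64 CPM in sham.

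Of 6 laminin beta and gamma chains, 3 were higher on days 1 and 3 and 4 on days 7, 21 and 60, and 0 were lower. Over these times 16.7% to 23.2% of all tested genes were higher and 13.9% to 19.8% lower, so that 0 lower of 6 is near that share. Lamb1 is a beta chain of early and mesenchymal laminins. Lamb1 had 3.34 and 10.2 CPM in sham, 124 and 92.8 on day 1, 145 and 129.9 on day 3, 588 and 788 on day 7, 198 and 225 on day 21, and 100.2 and 183 on day 60. Stroke libraries were above sham at each time, and the 2 of day 7 were above all others. Lamb1 had a log2 fold change against sham of 3.995 ± 0.56 on day 1 (adjusted p = 0.00169), 4.34 ± 0.57 on day 3 (adjusted p = 0.000686), 6.66 ± 0.64 on day 7 (adjusted p = 7.4e-05), 4.96 ± 0.59 on day 21 (adjusted p = 0.000311) and 4.38 ± 0.57 on day 60 (adjusted p = 0.000554). Lamb2 is the beta chain of mature vascular and pial membranes and was the most abundant laminin transcript per kilobase in sham. Lamb2 had 52.5 and 98.3 CPM in sham, 245 and 172 on day 1, 129 and 61.4 on day 3, 416 and 551 on day 7, 476 and 679.7 on day 21, and 275 and 554 on day 60. Its day 3 libraries overlapped sham. Lamb2 had a log2 fold change against sham of 1.46 ± 0.52 on day 1 (adjusted p = 0.0544), 0.34 ± 0.51 on day 3 (adjusted p = 0.6403), 2.68 ± 0.54 on day 7 (adjusted p = 0.00285), 2.94 ± 0.54 on day 21 (adjusted p = 0.00307) and 2.46 ± 0.53 on day 60 (adjusted p = 0.00739). Its call of day 60 was lost without sham replicate 1 or day 60 replicate 2 (adjusted p up to 0.0641), whereas all 5 calls of Lamb1 held under the 17 alternatives.

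Lamc1 is the gamma chain of most laminins. Lamc1 had 15.1 and 20.6 CPM in sham, 159 and 123 on day 1, 129.8 and 85.97 on day 3, 619.8 and 601 on day 7, 230.3 and 248 on day 21, and 119 and 137 on day 60. All stroke libraries were above sham, with a clear maximum on day 7. Lamc1 had a log2 fold change against sham of 2.98 ± 0.36 on day 1 (adjusted p = 0.000967), 2.60 ± 0.35 on day 3 (adjusted p = 0.000792), 5.10 ± 0.39 on day 7 (adjusted p = 3.9e-05), 3.75 ± 0.37 on day 21 (adjusted p = 0.000125) and 2.84 ± 0.36 on day 60 (adjusted p = 0.000431). Lamc3 is a gamma chain described at the surface of the cerebral cortex and in retina. Lamc3 had 3.88 and 5.37 CPM in sham, 27.4 and 30.2 on day 1, 29.6 and 25.2 on day 3, 129.5 and 196 on day 7, 194 and 263 on day 21, and 80.7 and 149 on day 60. Its stroke libraries were all above sham, and its mean was highest on day 21. Lamc3 had a log2 fold change against sham of 2.63 ± 0.41 on day 1 (adjusted p = 0.00249), 2.56 ± 0.41 on day 3 (adjusted p = 0.00175), 5.13 ± 0.46 on day 7 (adjusted p = 5.6e-05), 5.62 ± 0.47 on day 21 (adjusted p = 6.2e-05) and 4.63 ± 0.45 on day 60 (adjusted p = 0.000116). The 10 calls of Lamc1 and Lamc3 held under all 17 alternatives. The fibroblast and meninges list, with 8.097% and 19.9% of counts on day 7, 1.88% and 2.56% on day 60 and 0.00713% and 0.00805% in sham, was highest on day 7, as Lama1, Lama2, Lamb1 and Lamc1 were. Within this list Dcn, Lum, Pdgfra, Aldh1a2 and Slc6a13 had their highest means at other times. The pericyte and smooth muscle list was highest on day 7 too, when its gene Pdgfrb had 1820 CPM, against 20.9 in sham. Of its 10 genes, 4 were higher and 3 lower on day 7. The means of Acta2, Tagln and Myh11 were below sham then, as Acta2 with 66.0 CPM against 310. The part of these cells was not tested. Lamb3, a beta chain of epithelial laminin, had at most 1.42 CPM in any library and passed at no time. On day 7 Lamb3 had 0.156 CPM on average, against 1.28 CPM in sham, with adjusted p = 0.0774.

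**Figure D5:**
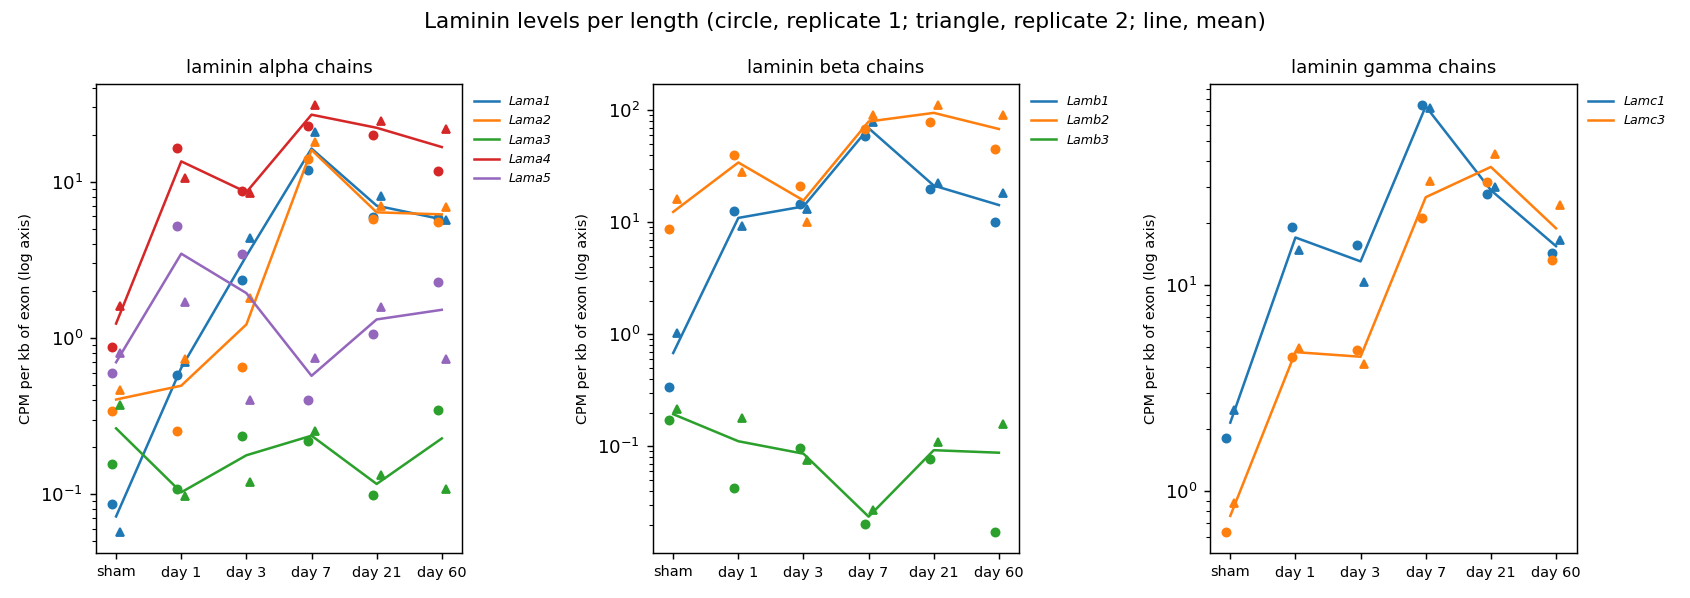
Level of 10 laminin chains in CPM per kb of exon, on log axes, in sham and at each time after stroke; circles are replicate 1, triangles replicate 2 and lines the group means. Lamc1 is above Lamc3 on day 7, with 73.8 and 26.7 CPM per kb, and below it on day 21, with 28.9 and 37.5.

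The make-up of each class, as a share of its summed CPM per kb (SD, n = 2), is given here as a description, with no test. Among beta subunits, Itgb1 made up 51.7% ± 1.86 in sham, 78.8% ± 14.3 on day 1, 49.3% ± 11.96 on day 3, 23.7% ± 1.03 on day 7, 32.9% ± 2.62 on day 21 and 33.98% ± 2.06 on day 60. Itgb5 made up 42.1% ± 1.001 in sham, 16.998% ± 12.2 on day 1, 38.97% ± 11.9 on day 3, 66.1% ± 0.427 on day 7, 59.6% ± 1.44 on day 21 and 61.2% ± 2.42 on day 60. The 2 together thus held most of the beta transcripts in every group, with Itgb1 ahead in sham and on day 1 and Itgb5 ahead from day 7 on. Among alpha subunits Itga5 made up 55.5% ± 4.38 on day 1 and 8.33% ± 4.14 in sham. Itga8 made up 32.3% ± 5.37 on day 60 and 2.68% ± 0.816 in sham. Itga6 had the largest share in sham, 20.6% ± 0.959, and Itgam had 18.7% ± 4.44. With the longest transcript as gene length the shares in sham were 28.04% ± 0.623 for Itga6, 15.2% ± 1.005 for Itga7 and 13.1% ± 3.42 for Itgam, so that Itga6 led under both lengths and the order below it depended on the length.

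Among laminin chains, Lama4 was the most abundant alpha chain per kilobase in every group, from 45.02% ± 1.66 of the alpha chains on day 7 to 74.6% ± 2.63 on day 1. Lama1 and Lama2 made up 26.7% ± 3.81 and 26.9% ± 2.26 on day 7, against 2.98% ± 1.74 and 15.4% ± 1.71 in sham. With the longest transcript as gene length they made up 16.6% ± 2.68 and 27.9% ± 1.803 on day 7, against 1.95% ± 1.17 and 16.7% ± 2.19 in sham, and Lama4 led in every group there too. Lamb1 made up 4.79% ± 1.55 in sham, 24.3% ± 0.725 on day 1, 48.5% ± 11.04 on day 3, 46.6% ± 0.233 on day 7, 18.6% ± 2.44 on day 21 and 17.5% ± 1.04 on day 60 of the beta chains. Which of Lamb1 and Lamb2 led on days 3 and 7 depended on whether the exon union or the longest transcript was taken as gene length, and Lamb2 led in the other groups under both. With the longest transcript the share of Lamb1 was 58.03% ± 0.228 on day 7 and 7.35% ± 2.33 in sham. Lamc3 made up 21.8% ± 0.242 in sham, 21.8% ± 4.23 on day 1, 25.9% ± 3.19 on day 3, 26.4% ± 6.08 on day 7, 55.6% ± 4.12 on day 21 and 52.6% ± 8.797 on day 60 of the gamma chains, so that its mean was ahead of that of Lamc1 on days 21 and 60 alone, on day 60 in replicate 2 and not in replicate 1.

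Comparisons between times show when the members moved. From all 5 stroke groups together, 12 of 36 tested members differed among the times, where 16.7% of all genes did. On day 3, 4 members were higher than on day 1, where 3.09% of all genes were higher and 3.57% changed. They were Itga8 (4.94 ± 0.70, adjusted p = 0.00475), Itgb2 (2.78 ± 0.44, adjusted p = 0.00797), Itgb5 (2.03 ± 0.42, adjusted p = 0.0274) and Lama1 (2.38 ± 0.42, adjusted p = 0.0138), as log2 fold changes ± SE. On day 7, 9 members were higher than on day 3, where 3.06% of all genes were higher, 3.22% lower and 6.29% changed. The 3 integrins among them were Itga11 (3.76 ± 0.70, adjusted p = 0.0188), Itga8 (2.97 ± 0.63, adjusted p = 0.0274) and Itgb5 (1.87 ± 0.42, adjusted p = 0.0308). The 6 laminins were Lama1 (2.28 ± 0.42, adjusted p = 0.0187), Lama2 (3.71 ± 0.61, adjusted p = 0.0133), Lamb1 (2.32 ± 0.52, adjusted p = 0.0321), Lamb2 (2.34 ± 0.53, adjusted p = 0.03305), Lamc1 (2.50 ± 0.35, adjusted p = 0.0106) and Lamc3 (2.57 ± 0.41, adjusted p = 0.0126). No member was lower in either comparison; at an unadjusted p under 0.05, 1 member was lower in each, and DESeq2 called 0 and 1 lower.

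The members called between later times were all lower than on day 7. On day 21, 0 members differed from day 7, where 0.243% of all genes were higher, 0.198% lower and 0.441% changed, with 10 members at an unadjusted p under 0.05. DESeq2 called 7 members in that comparison, and 5 were called once replicate number was added as a block. Over all genes DESeq2 called 1039 there and the block 635, against 69 in edgeR without the block. On day 60, 0 members differed from day 21, where 0% of all genes did, with 6 members at an unadjusted p under 0.05 and 0 called by DESeq2. On day 60, 6 members were lower than on day 7, where 2.39% of all genes were lower and 3.95% changed. They were Itga11 (-2.85 ± 0.67, adjusted p = 0.0471), Itgam (-3.79 ± 0.84, adjusted p = 0.03799), Itgav (-2.11 ± 0.42, adjusted p = 0.0258), Itgb2 (-2.72 ± 0.44, adjusted p = 0.0123), Lamb1 (-2.28 ± 0.52, adjusted p = 0.0431) and Lamc1 (-2.25 ± 0.35, adjusted p = 0.0101). The count of day 7 against day 3 was 0 without either day 7 library, 1 without day 3 replicate 1, 6 without day 3 replicate 2 or day 21 replicate 2 and 5 without day 21 replicate 1. That of day 60 against day 7 was 0 without replicate 1 of day 7 or of day 60, 1 without day 7 replicate 2, and 3 and 2 when replicate 1 or 2 of day 21 was left out. For day 60 against day 7 DESeq2 called 11 members changed, and 10 were called with the block. Over all genes DESeq2 called 2087 there and the block 1942, against 617 in edgeR without the block. The count of day 3 against day 1 was 1 without day 1 replicate 1. In each of these fits with a library left out, fewer of all genes were called as well. The value of Itgam was -5.97 without day 60 replicate 2. Of the 19 calls between times, that of Itga8 between days 3 and 1 held under all 17 alternatives.

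Genes that work beside integrins and laminins were counted in 3 lists, to be read against the shares of all tested genes: 16.7% higher and 13.9% lower on day 1, 18% and 14.2% on day 3, 23.2% and 19.8% on day 7, 17.8% and 15.4% on day 21, and 16.8% and 14.8% on day 60. The median of all tested genes was between 0.01 and 0.16 at these times. Of 19 other basement membrane genes, 9 were higher and 0 lower on day 1, 12 higher and 0 lower on day 3, 14 higher and 0 lower on day 7, 15 higher and 0 lower on day 21 and 14 higher and 0 lower on day 60 against sham. Their median log2 fold change was 1.82 on day 1, 3.43 on day 3, 5.53 on day 7, 4.45 on day 21 and 3.19 on day 60. Col18a1, whose product includes the endostatin domain, had 5909 ± 3005 CPM on day 7 and 16.2 ± 10.01 CPM in sham. The log2 fold change was 8.51 ± 0.96 on day 7 (adjusted p = 0.000159). Nid1, which links laminin to collagen IV, had 2349 ± 209 CPM on day 7 and 8.802 ± 1.13 CPM in sham, with a log2 fold change of 8.06 ± 0.59 on day 7 (adjusted p = 3.6e-05). Fbln1, a matrix glycoprotein of these membranes, had 2852 ± 830.2 CPM on day 21 and 11.9 ± 1.92 CPM in sham, with a log2 fold change of 7.91 ± 0.81 on day 21 (adjusted p = 0.000143).

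Of 31 integrin ligands, 18 were higher and 2 lower on day 1, 17 higher and 0 lower on day 3, 20 higher and 1 lower on day 7, 20 higher and 0 lower on day 21 and 19 higher and 0 lower on day 60. Their median was 2.52 on day 1, 3.02 on day 3, 3.93 on day 7, 3.19 on day 21 and 3.09 on day 60. The fibrillar collagen genes Col1a1, Col1a2 and Col3a1, called at all 5 times, also belong to the fibroblast and meninges list. Col1a1 had 56118 ± 42102 CPM on day 7 and 6.18 ± 1.64 CPM in sham, with a log2 fold change of 13.15 ± 2.02 on day 7 (adjusted p = 0.000698). Col3a1 had 82596 ± 66277 CPM on day 7 and 15.1 ± 0.462 CPM in sham, with a log2 fold change of 12.42 ± 1.58 on day 7 (adjusted p = 0.000280). Col1a2 had 44661 ± 31634 CPM on day 7 and 16.9 ± 6.35 CPM in sham, with a log2 fold change of 11.37 ± 1.47 on day 7 (adjusted p = 0.000300). The 2 day 7 libraries differed widely in each of these 3 genes, and both stood above sham.

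Of 28 genes that couple integrins to actin and to signalling inside the cell, 12 were higher and 3 lower on day 1, 11 higher and 2 lower on day 3, 14 higher and 4 lower on day 7, 14 higher and 1 lower on day 21 and 8 higher and 3 lower on day 60. Their median was 0.82 on day 1, 0.97 on day 3, 1.12 on day 7, 0.99 on day 21 and 0.51 on day 60, lower at each time than those of the basement membrane and ligand lists. On days 1, 7 and 60 the count of lower genes was near the share of all genes, as 3 of 28 on day 60 against 14.8%. On days 3 and 21, 2 and 1 of 28 were lower, against 14.2% and 15.4% of all genes. The 5 comparisons share the sham libraries and are not independent. Dab2, an endocytic adaptor of integrins, had 788 ± 37.3 CPM on day 7 and 20.1 ± 4.67 CPM in sham, with a log2 fold change of 5.29 ± 0.53 on day 7 (adjusted p = 9.3e-05). Tln1, the talin that activates integrins, had 375 ± 83.04 CPM on day 7 and 46.9 ± 5.36 CPM in sham, with a log2 fold change of 2.998 ± 0.38 on day 7 (adjusted p = 0.000278). Pxn, the focal adhesion scaffold paxillin, had 128 ± 78.7 CPM on day 1 and 19.5 ± 2.89 CPM in sham, with a log2 fold change of 2.72 ± 0.56 on day 1 (adjusted p = 0.00674).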

How the data were processed

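RNA was sequenced from sorted cortical astrocytes in 12 libraries of 6 groups. The authors deposited raw read counts per gene symbol. The submitters' processing notes name HTSeq 0.6.1, Bowtie2 2.3.4.2 and genome build mm10; the annotation, strand setting, handling of multi-mapping reads and any filter on genes are not given in the sources used here. The table of the series equalled the sample files in 189288 of 189288 values.

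Tests used edgeR 4.0.16 with limma 3.58.1 under R 4.3.3. filterByExpr with a minimum count of 10 kept 15635 of 15774 genes. Libraries were scaled with TMM factors (0.689 to 1.22), and 1 quasi-likelihood fit with a coefficient per group covered all libraries (6 residual and 4.15 prior degrees of freedom, median biological coefficient of variation 0.408). CPM use the TMM-scaled totals; percents of counts use plain totals. Levels per kilobase use the union of GENCODE exons on GRCm38, and SE is the log2 fold change divided by the square root of F. With 3 counts as the floor, a level in replicate 1 is resolved to 0.202 CPM at worst; this covers counting error only. The fit was tested on simulated counts.

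Replicate numbers were checked for pairing: in 15 of 15 pairs of groups the difference between replicates 2 and 1 correlated over genes (0.319 to 0.713), above the threshold of 0.1, so a replicate block was fitted as an alternative. The labels state no pairing. Replicate 2 was 6.30 to 9.63 times as deep in every group, so pairing and a shared difference in depth cannot be told apart. Other alternatives were DESeq2 1.42.0, other size factors, no filter, and leaving out each library; the longest transcript as gene length was added after seeing the data. Values in every library are given for the 3 members of each role with the highest level per kilobase and for any called against sham at 3 or more times. From each related list the text names up to 3 genes called in most comparisons with at least 10 CPM. The members, lists and rules were chosen with earlier results of these data known. The values of 1 member are not reported here. In the adhesion list, Tns2 was matched to its older symbol Tenc1.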

Additional observations from a re-analysis of the deposited data

Results flagged for a closer look

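The effect of stroke against sham differed between times, by a test of the difference itself in edgeR, in 19 values of 12 members. Values are log2 fold changes. On day 3 against day 1 they were 4.94 for Itga8, 2.78 for Itgb2, 2.03 for Itgb5 and 2.38 for Lama1. On day 7 against day 3 they were 3.76 for Itga11, 2.97 for Itga8, 1.87 for Itgb5, 2.28 for Lama1, 3.71 for Lama2, 2.32 for Lamb1, 2.34 for Lamb2, 2.50 for Lamc1 and 2.57 for Lamc3. On day 60 against day 7 they were -2.85 for Itga11, -3.79 for Itgam, -2.11 for Itgav, -2.72 for Itgb2, -2.28 for Lamb1 and -2.25 for Lamc1. The share of the fibroblast and meninges list differed in the same direction between these times, with 0.225% and 0.285% of counts on day 1, 0.701% and 2.42% on day 3, 8.097% and 19.9% on day 7 and 1.88% and 2.56% on day 60. By gene, 2 of its 10 were higher on day 3 against day 1 and 3 on day 7 against day 3, with 0 lower. On day 60 against day 7, 1 was higher and 2 were lower. Over all genes 3.09% and 3.06% were higher in the first comparisons, and 1.55% higher and 2.39% lower in the last. The microglia and macrophage list had 0.0331% and 0.0379% on day 1, 0.4705% and 0.371% on day 3, 0.5003% and 0.296% on day 7 and 0.06904% and 0.06797% on day 60. The part of these cells in the values was not tested. With 2 libraries in each group, no single library could be examined as an outlier.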

How the results depend on the processing

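No called value of a member reversed under any of 17 alternatives, and 65 of 101 calls against sham kept their significance under all of them. Leaving out 1 library in turn gave 9 to 18 members higher and 0 to 1 lower on day 1, 12 to 20 and 0 to 1 on day 3, 19 to 24 and 0 to 2 on day 7, 16 to 22 and 0 to 0 on day 21, and 13 to 18 and 0 to 2 on day 60. The lowest counts of days 1 and 3, 9 and 12, came without sham replicate 1. Between times these fits gave 1 to 5 members for day 3 against day 1, 0 to 10 for day 7 against day 3, 0 to 0 for day 21 against day 7, 0 to 0 for day 60 against day 21, 0 to 7 for day 60 against day 7 and 8 to 15 for any difference among the times. A group left with 1 library is assumed to vary like the others. The DESeq2 test called 1 member lower on day 3 and 3 lower on day 7, 7 changed on day 21 against day 7 and 11 on day 60 against day 7. The replicate block, run because replicate differences correlated between groups, called 2 members lower on day 7, 5 changed on day 21 against day 7 and 10 on day 60 against day 7, and ended 0 calls. In each of these comparisons DESeq2 and the block also called more of all genes than edgeR did without the block. The cause was not tested. With DESeq2's size factors the all-gene median shifted by -0.088 to -0.135 over the comparisons with sham. Plain library totals moved it by 0.25 on day 1, 0.24 on day 3 and -0.26 on day 7 against sham, and by -0.52 for day 7 against day 3, 0.36 for day 21 against day 7 and 0.33 for day 60 against day 7. The share of calls over all genes that were higher was then 66.5%, 66.4%, 45.3%, 15.3%, 85.0% and 60.9% in these comparisons, against 54.6%, 55.99%, 53.98%, 48.7%, 55.1% and 39.4% with TMM. Each of these scalings ended 6 of the 101 calls against sham. Depth limits Itga2, Itgax, Itgae, Itgb6, Itgb2l and Lamb3, which have low counts in replicate 1.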
